A study of Mus musculus with 4 samples.

Results

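The genes described here are 10 components of bone morphogenetic protein (BMP) signalling, followed in mouse dorsal skin through telogen, when adult hair follicles rest. They comprise the ligand genes Bmp2, Bmp4, Bmp6 and Bmp7, the target genes Id1, Id2, Id3 and Id4, and the antagonist genes Bambi and Sostdc1. They were chosen by name, with earlier results of these data known, out of 18194 genes with a probe set of their own on the array. Of the probe sets 17 report them. Total RNA of whole dorsal skin from male C57B6 mice was measured at postnatal day 54 (P54, the middle of telogen) and postnatal day 59 (P59, late telogen), with 2 Affymetrix arrays at each age. The labels give no treatment or transgene, call the 2 arrays of an age biological replicates, and do not say how many animals a sample holds. The p-values therefore measure the spread between these samples. Whole skin mixes epidermis, follicles, dermis, fat and muscle, so fewer cells of a type and less RNA per cell cannot be told apart.

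BMP ligands are secreted dimers that bind paired receptor kinases. The receptors phosphorylate Smad1, Smad5 and Smad9, which enter the nucleus with Smad4 and switch on the Id genes. Id proteins lack a DNA-binding region and act by capturing E proteins, the partners of many differentiation factors. In resting skin, BMPs made by dermis, fat and follicle cells hold the follicle stem cells quiescent, and antagonists of BMP oppose this brake when a new growth phase starts.

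None of the 10 genes differed between P59 and P54 past the adjusted threshold. Id1 had the largest difference, with a mean lower by 1.08 on the log2 scale at P59, and most of that difference lay in P59 replicate 2. In the probe sets used, Id4 and Bmp6 were low in P59 replicate 1 and at the P54 level in P59 replicate 2. Another set of Id4, 1423260_at, was lower in both P59 arrays than in both P54 arrays, and lowest in P59 replicate 2. Bmp2, Bmp4, Bmp7, Id2, Id3, Bambi and Sostdc1 had means that differed by between -0.11 and 0.18. Values are log2 of the deposited intensity, a difference is the P59 mean minus the P54 mean, and p-values come from limma, adjusted over 10916 genes by Benjamini-Hochberg. All 10 genes lay above the intensity filter of 6.58 that defined the genes tested, each read from its probe set with the highest mean.

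The arrays differed in a sign of RNA quality. Control probe sets read the 5′ end, the middle and the 3′ end of the transcripts of Gapdh, a glycolytic enzyme, and Actb, the cytoskeletal beta-actin. For Gapdh the 3′ set exceeded the 5′ set by 0.34 and 0.20 in P54 replicates 1 and 2, by 0.23 in P59 replicate 1 and by 4.57 in P59 replicate 2. For Actb the gaps were 0.45, 0.52 and 0.18 in the first 3 of these arrays and 1.64 in P59 replicate 2. P59 replicate 2 thus stood alone in its low 5′ signal, and results that rest on it are given with and without it. The tissue label was checked with defining markers. The basal keratin genes Krt5 and Krt14 lay between 12.91 and 13.74, the collagen genes Col1a1 and Col3a1 between 14.46 and 14.55, and the adipocyte hormone gene Adipoq between 11.68 and 12.36. Corin and Alx4, markers of the dermal papilla, lay below the filter on all 4 arrays.

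**Figure D1:**
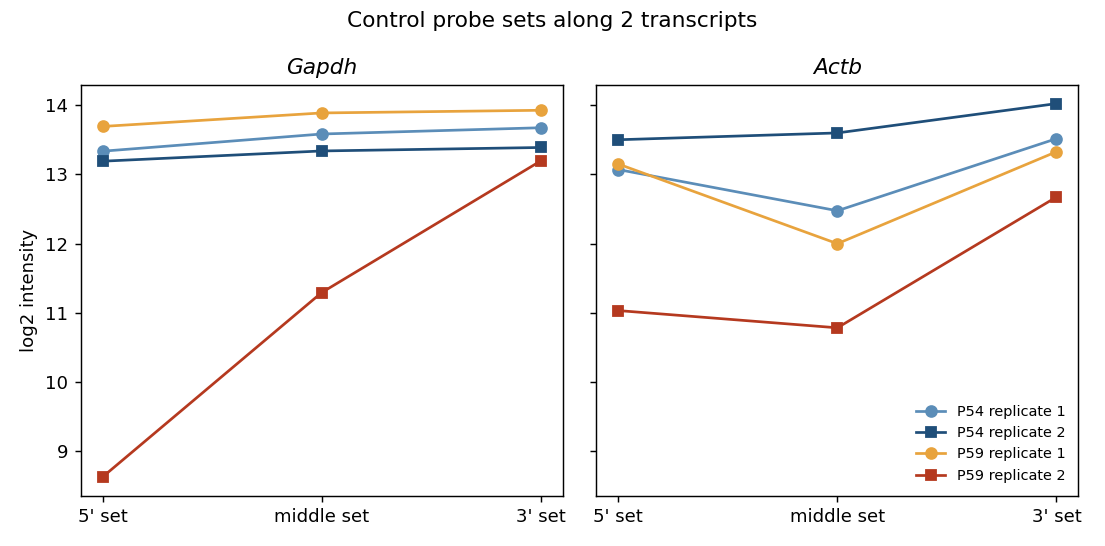
Log2 intensity (y axis) of the control probe sets at the 5′ end, middle and 3′ end (x axis) of Gapdh and Actb, 1 line per array. The 5′ set of Gapdh is at 8.62 in P59 replicate 2 and between 13.19 and 13.69 in the other 3 arrays.

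In limma's fit 0 of the 10 genes were past an adjusted p of 0.05, with adjusted p-values between 0.590 and 0.999, where 2 of 10916 genes tested, or 0.0183%, were past it. At an unadjusted p under 0.05 there was 1 of the 10 genes, Id1, against 6.49% of all genes tested. The P54 and P59 arrays did not overlap for 1 of the 10, again Id1, against 33.7% of genes tested. On average 6 of the 10 were higher and 4 lower at P59, where 58.4% of all genes tested were higher. The median difference of the 10 was 0.03, and the median over all genes tested was 0.05. The median absolute difference was 0.15 for the 10 genes and 0.18 for all tested. An exact permutation test of 2 arrays against 2 cannot give a two-sided p below 0.333. The 95% intervals of the 10 differences had a median half-width of 0.55.

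**Figure D2:**
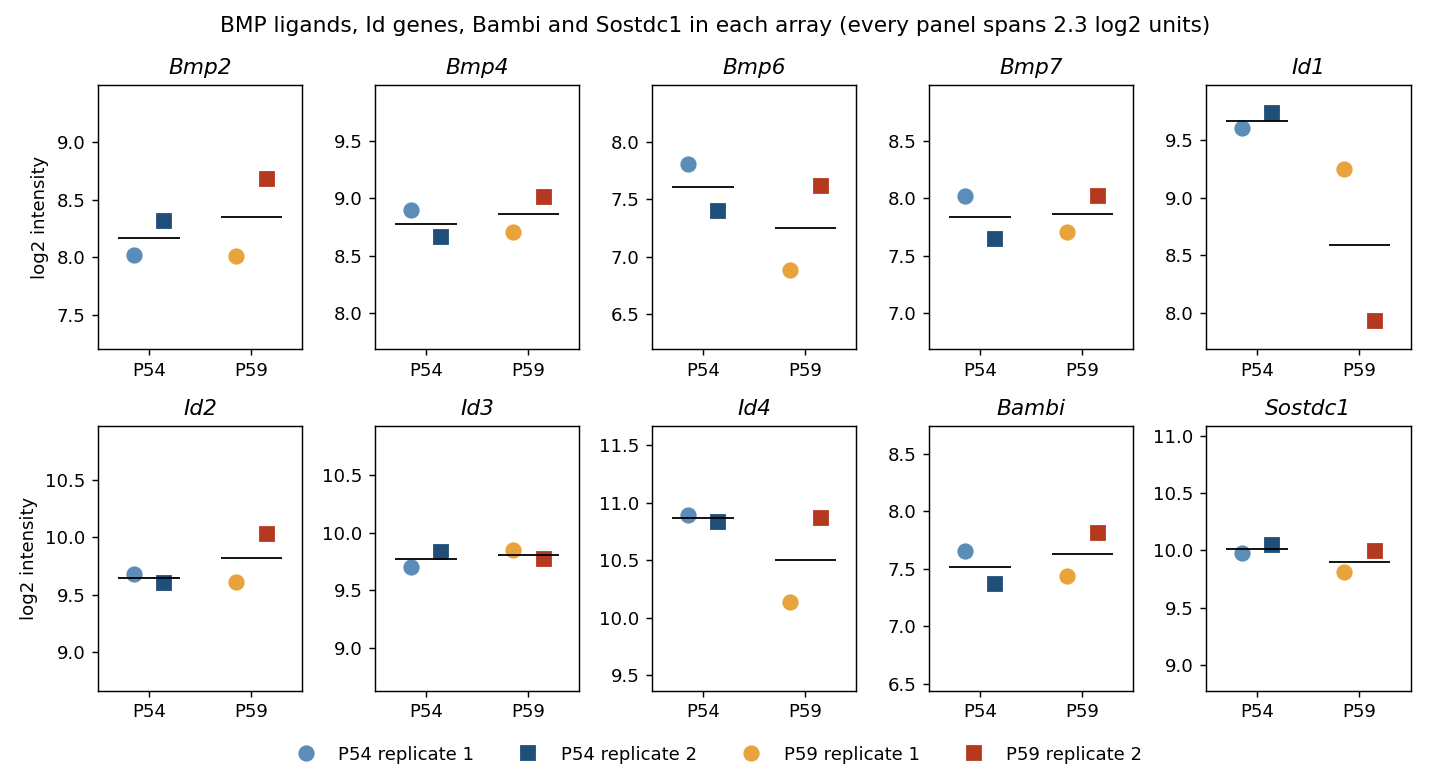
Log2 intensity (y axis) of the 10 genes in each of the 4 arrays, by age (x axis), with a bar at the mean of each age. In the panel of Id1 both P59 arrays lie under both P54 arrays, and P59 replicate 2 lies lowest at 7.93, while in the other panels the ages overlap.

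Among the ligands, Bmp2, a signal that dermal cells and fat cells make in resting skin, was at 8.02 and 8.31 in P54 replicates 1 and 2 and at 8.01 and 8.68 in P59 replicates 1 and 2. Its level in P59 replicate 1 matched that in P54 replicate 1, and P59 replicate 2 was the highest of the 4 arrays. The difference was 0.18 (SE 0.27, 95% interval -0.43 to 0.79, adjusted p = 0.965), and it was -0.15 without P59 replicate 2. Bmp4, a ligand of the dermis and dermal papilla, read 8.90 and 8.66 in the P54 arrays and 8.71 and 9.01 in the P59 arrays. The 2 ages interleaved, with P59 replicate 2 again highest, and the difference was 0.08 (interval -0.45 to 0.61, adjusted p = 0.985; -0.07 without P59 replicate 2).

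Bmp6, a ligand of the resting follicle, read 7.81 and 7.40 in the P54 arrays and 6.88 and 7.61 in the P59 arrays. P59 replicate 1 was the lowest array, and P59 replicate 2 lay between the P54 arrays. The difference was -0.36 (SE 0.29, interval -0.997 to 0.28, adjusted p = 0.934), and leaving out 1 array at a time it ran from -0.72 without P59 replicate 2 to 0.01 without P59 replicate 1. Bmp7 read 8.02 and 7.65 in the P54 arrays and 7.70 and 8.02 in the P59 arrays. Each P59 value lay close to a P54 value, and the difference was 0.03 (interval -0.52 to 0.58, adjusted p = 0.999; -0.13 without P59 replicate 2).

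Id1, the classical direct target of the BMP Smads, was read by 1 probe set, with values of 9.60 and 9.73 in the P54 arrays and 9.25 and 7.93 in the P59 arrays. On the deposited linear scale the P54 arrays gave 777 and 850, and the P59 arrays gave 608 and 244. Both P59 arrays were below both P54 arrays, and the P59 arrays lay 1.32 apart where the P54 arrays lay 0.13 apart. The difference was -1.08 (SE 0.37, 95% interval -1.896 to -0.26), or 2.11-fold lower at P59, with an adjusted p of 0.590. A larger absolute difference was seen in 1.24% of genes tested. Without P59 replicate 2 the difference of Id1 was -0.42 (adjusted p = 0.886), and without P59 replicate 1 it was -1.74 (adjusted p = 0.00978). That last call sets P59 replicate 2 alone, assumed to vary like the P54 arrays, against P54, a setting in which 3.67% of all genes tested were past the threshold. Id1 lay 1.599 below the mean of the other 3 arrays in P59 replicate 2, the array with the low 5′ signal, and 0.660% of genes tested lay further below. The part of that signal loss in the level of Id1 was not tested.

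Id2, a target that is expressed in many skin cell types, read 9.68 and 9.60 in the P54 arrays and 9.61 and 10.03 in the P59 arrays. The 3 arrays other than P59 replicate 2 lay close together, and the difference was 0.18 (interval -0.35 to 0.71, adjusted p = 0.959; -0.03 without P59 replicate 2). Id3, which is often induced together with Id1, was the steadiest of the 10 genes. It read 9.70 and 9.84 in the P54 arrays and 9.85 and 9.77 in the P59 arrays, a range of 0.15 over all 4 arrays that included P59 replicate 2. The difference was 0.04 (interval -0.46 to 0.54, adjusted p = 0.998; 0.08 without P59 replicate 2).

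Another probe set of Id4, 1423260_at, had a different pattern, given with the probe sets. The set used for Id4 read 10.89 and 10.84 in the P54 arrays and 10.14 and 10.86 in the P59 arrays. P59 replicate 1 stood 0.73 below the P54 mean, and P59 replicate 2 was level with it. The difference was -0.36 (SE 0.27, interval -0.97 to 0.24, adjusted p = 0.917), -0.73 without P59 replicate 2 (adjusted p = 0.490) and -0.0009 without P59 replicate 1. In limma's fit without P59 replicate 2, 2 of the 10 genes had an unadjusted p under 0.05, Id4 and Bmp6, against 6.34% of genes tested, and 0 were past the adjusted threshold. That fit rests on P59 replicate 1 alone, assumed to vary like the P54 arrays. P59 replicate 1 held the highest level of growing follicle markers. The tested genes of that list, 6 of 8, averaged 10.14 there, 8.11 in P59 replicate 2, and 6.96 and 5.44 at P54. Of these 6 genes 5 had higher means at P59, and Hoxc13 differed by -0.05. The means of Msx2 and Foxn1, also on the list, lay below the filter. Hoxc13, Msx2 and Foxn1 are named here after their values were seen. The part of follicle growth in the levels of Id4 and Bmp6 was not tested.

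Bambi, a decoy receptor without a kinase domain that dampens BMP and TGF-beta signals, read 7.66 and 7.37 in the P54 arrays and 7.44 and 7.81 in the P59 arrays. The ages interleaved, and the difference was 0.11 (interval -0.43 to 0.65, adjusted p = 0.977; -0.08 without P59 replicate 2). Sostdc1, a secreted antagonist that binds BMPs and also modulates Wnt signals, read 9.98 and 10.05 in the P54 arrays and 9.81 and 9.99 in the P59 arrays. P59 replicate 1 was the lowest array by a small margin, and the difference was -0.11 (SE 0.23, interval -0.61 to 0.39, adjusted p = 0.973; -0.20 without P59 replicate 2).

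**Figure D3:**
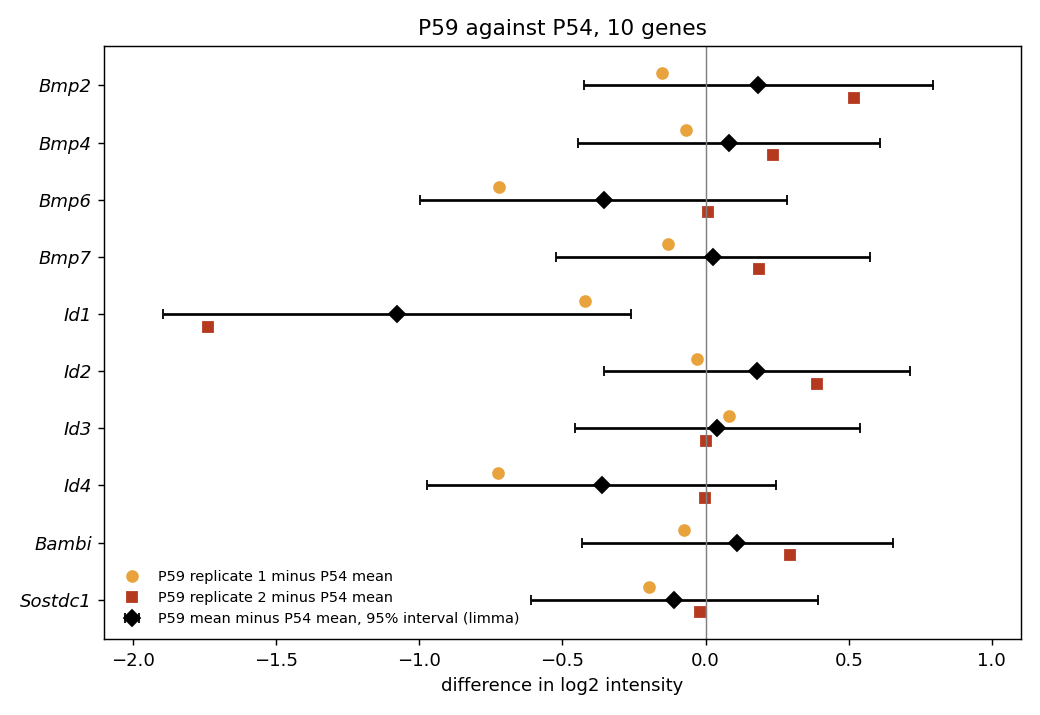
Difference in log2 intensity from P54 (x axis) for each gene (y axis), as the mean of P59 with limma's 95% interval (black diamonds) and for each P59 array singly. Of the 10 intervals 9 include 0, and the 2 P59 arrays lie on opposite sides of 0 for Bmp2, Bmp4, Bmp6, Bmp7, Id2 and Bambi.

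The 10 genes were also compared with each other by the root mean square difference of their log2 values over the 4 arrays, each centred on its own mean. The closest pair was Bmp4 and Bambi, at 0.03, followed by Bmp7 with Bambi and with Bmp4, at 0.05 and 0.06. All 3 of these genes were higher in P54 replicate 1 and P59 replicate 2 than in the other 2 arrays. For Bmp7 this held for the set used. Its sets 1418910_at and 1432410_a_at were lower in P59 replicate 2 than in P59 replicate 1. Bmp6 and Id4, at 0.12, were closest to each other, and both were lowest in P59 replicate 1. That likeness rested mainly on P59 replicate 1, since between the P54 arrays Bmp6 differed by 0.40 and Id4 by 0.06, and the set 1423260_at of Id4 had another pattern, given with the probe sets. The promoters of this pair are shown, as the 250 bases before the annotated start on the plus strand, from RefSeq (GRCm38.p6). The Bmp6 window is chr13:38345466-38345715 and the Id4 window chr13:48260866-48261115. Capitals mark GGCGCC, a GC-rich element that BMP Smads can bind, and CAGAC, a Smad-binding element, searched on both strands.
Bmp6: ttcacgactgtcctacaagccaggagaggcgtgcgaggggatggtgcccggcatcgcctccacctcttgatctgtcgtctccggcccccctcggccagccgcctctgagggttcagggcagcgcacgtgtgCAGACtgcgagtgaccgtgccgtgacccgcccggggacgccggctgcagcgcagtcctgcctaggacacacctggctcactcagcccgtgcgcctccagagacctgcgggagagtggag
Id4: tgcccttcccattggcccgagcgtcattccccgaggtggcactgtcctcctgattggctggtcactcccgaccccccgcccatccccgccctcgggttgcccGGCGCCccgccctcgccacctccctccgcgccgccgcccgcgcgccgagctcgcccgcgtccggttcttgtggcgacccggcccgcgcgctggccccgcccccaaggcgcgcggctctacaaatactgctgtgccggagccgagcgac
The Bmp6 window held 1 CAGAC and 0 GGCGCC, and the Id4 window held 1 GGCGCC and 0 CAGAC, so the pair shared neither of these elements in this window. Of the 10 genes 5 had a window in the table: the Id2 window held 1 GGCGCC, the Id3 window held 2 CAGAC, and the Bmp4 window held neither. Among 32851 windows of the same length 9.59% held GGCGCC and 42.2% held CAGAC. The GC content was 68.8% in the Bmp6 window and 75.6% in the Id4 window, against a median of 52.4% over all windows. These matches are a description of the letters and were not tested for binding.

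Bmp7, Id2, Id4 and Sostdc1 had more than 1 probe set, and the sets of a gene disagreed in some arrays. For Id4, the set 1450928_at followed the one used above, with 9.66 and 9.56 in the P54 arrays and 9.09 and 9.64 in the P59 arrays. The set 1423260_at did not: it read 8.55 and 9.53 in the P54 arrays and 7.82 and 7.40 in the P59 arrays, lowest in P59 replicate 2. Its ages did not overlap, and its difference was -1.43. When limma tested each set, its unadjusted p was 0.0068 and its adjusted p was 0.908. With the mean of its 3 sets Id4 differed by -0.68 (adjusted p = 0.667). For Bmp7, the set 1418910_at differed by -0.06, while the set 1432410_a_at was at 6.87 and 6.62 at P54, at 6.87 in P59 replicate 1 and at 4.62 in P59 replicate 2. The mean of the Bmp7 sets differed by -0.35, and it includes the set 1432410_a_at, whose own mean of 6.25 lay below the filter. The dim set 1453596_at of Id2 differed by -0.47 and the set 1422537_a_at by 0.04. The second set of Sostdc1 differed by -0.33.

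**Figure D4:**
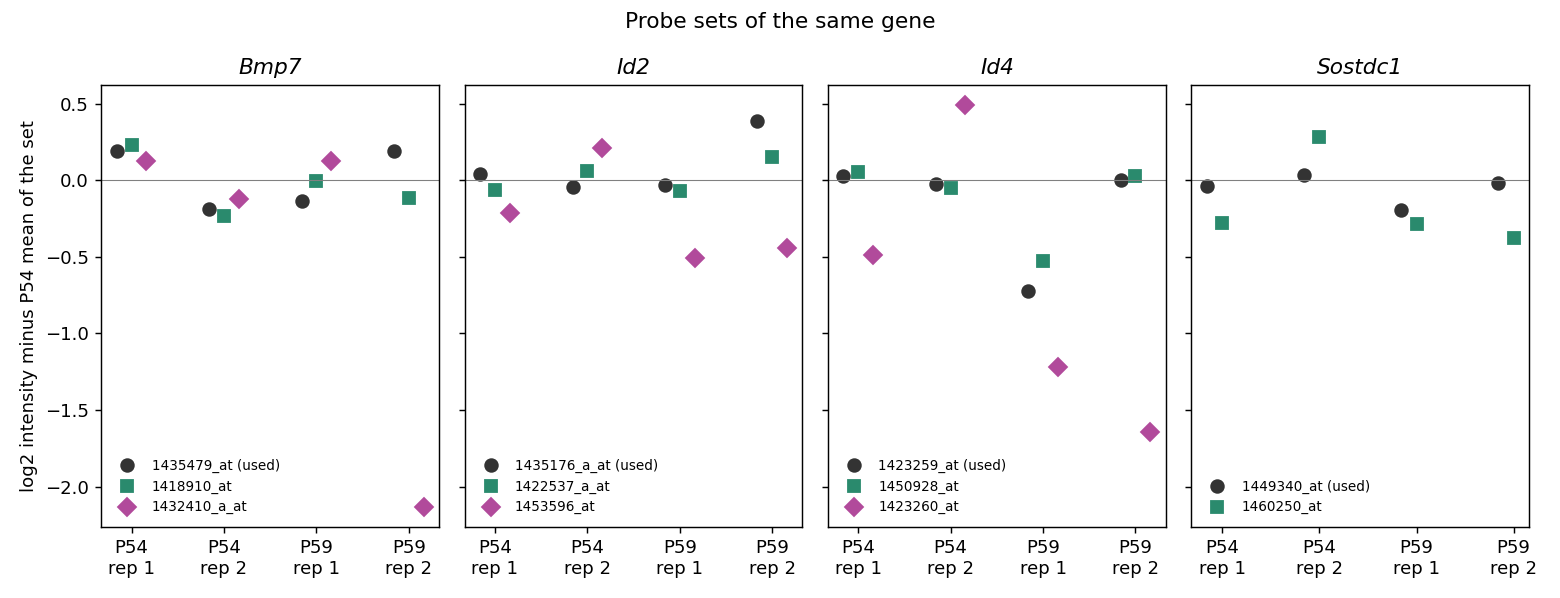
Log2 intensity of each probe set minus its own P54 mean (y axis) in the 4 arrays (x axis) for the genes with several sets, 1 marker shape per set. In P59 replicate 2 the set 1432410_a_at of Bmp7 lies at -2.13 and the set 1423260_at of Id4 at -1.64, away from the other sets of the same gene.

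Such disagreement was common in that array. Of 4202 genes with at least 2 sets above the filter, 19.6% had sets whose deviations from the other arrays differed by more than 1 in P59 replicate 2. The share was 10.4% in P54 replicate 2, 3.88% in P59 replicate 1 and 1.45% in P54 replicate 1. Id4 differed by 1.51 between sets in P54 replicate 2 and by 1.48 in P59 replicate 2. Bmp7, with 2 sets above the filter, differed by 0.35 between them in P59 replicate 2. Genes of like pattern were sought among the genes tested, leaving out clone-type symbols, such as those with Rik, and symbols that begin with a letter and a digit. In that search the genes nearest to Id1 were Plxnb2 (root mean square difference 0.05), Zc3h18 (0.06) and Pcdh1 (0.08), over the 4 arrays. All 3 were lowest in P59 replicate 2, at 8.96, 6.03 and 6.93. In the same search the genes nearest to Bmp6 were Pkib (0.05), Rasgrf2 (0.06) and Zfp467 (0.07), each lowest in P59 replicate 1.

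The other genes of the pathway came from lists of 56 ligands, receptors, Smads, antagonists, targets and E proteins, of which 51 had a probe set and 35 were tested. In limma's fit 0 of the 35 were past the adjusted threshold in either direction, and at an unadjusted p under 0.05 there were 1 higher and 1 lower, where 6.49% of all genes tested were at such a p. The P54 and P59 arrays did not overlap for 28.6% of the 35, against 33.7% of all tested, and the median difference was 0.06, against 0.05.

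Of the list of other ligands 2 of 10 genes were tested, Bmp1 and Gdf10, and both had higher means at P59. Bmp1, on this list by its name, encodes a protease that frees BMPs from chordin. It differed by 0.31 (adjusted p = 0.917), and by 0.22 without P59 replicate 2. Gdf10 differed by 0.26 (adjusted p = 0.961), and by 0.74 without P59 replicate 2. Of the receptors and co-receptors 10 of 11 were tested, 3 with higher and 7 with lower means. The receptor kinase genes Bmpr1a and Bmpr2 differed by 0.09 (adjusted p = 0.981) and -0.04 (adjusted p = 0.998), and by -0.05 and -0.21 without P59 replicate 2. The co-receptor genes Rgma and Eng differed by -0.56 (adjusted p = 0.884) and -0.47 (adjusted p = 0.890), and by 0.01 and -0.03 without P59 replicate 2.

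Of the Smads and Smad ligases 6 of 8 were tested. Smad5, one of the Smads that carry the BMP signal to the Id genes, read 9.22 and 9.20 in the P54 arrays and 8.85 and 7.73 in the P59 arrays. As for Id1, both P59 arrays were below both P54 arrays. P59 replicate 2, the array with the low 5′ signal, lay far below the rest. The difference was -0.92 (SE 0.33, adjusted p = 0.609), and -0.36 without P59 replicate 2. This was the gene of these lists that was lower at an unadjusted p under 0.05. It was read from its brightest probe set alone. The part of the low 5′ signal of P59 replicate 2 in the level of Smad5 was not tested. The inhibitory Smad7, a target of the pathway, differed by 0.27 (adjusted p = 0.939; 0.18 without P59 replicate 2).

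Of the antagonists beside Bambi and Sostdc1, 9 of 16 were tested, 8 with higher and 1 with a lower mean at P59. Of all genes tested 58.4% had a higher mean. The median difference of these antagonists was 0.23, against 0.05 for all genes tested, and 0.31 without P59 replicate 2. Without that array Chrd, Fst and Twsg1 turned lower, Fstl3 stayed lower and the rest stayed higher. Twsg1 is named here after its values were seen. Fstl1, a secreted follistatin-like protein, was the gene that was higher at an unadjusted p under 0.05, with 11.99 and 11.76 in the P54 arrays and 12.30 and 12.56 in the P59 arrays. The ages did not overlap, and the difference was 0.56 (SE 0.23, adjusted p = 0.743), or 0.43 without P59 replicate 2. Fst, which encodes follistatin, differed by 0.06 (adjusted p = 0.990; -0.02 without P59 replicate 2), and Chrd, which encodes chordin, by 0.20 (adjusted p = 0.954; -0.06 without P59 replicate 2). Nog, which encodes noggin, lay below the filter on all arrays, between 4.51 and 5.27. The mean of Grem1, which encodes gremlin, was below it too, and neither was tested.

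Of the other target genes 6 of 10 were tested, 3 with higher and 3 with lower means. Dlx3, a homeobox gene of follicle and epidermal differentiation, differed by 0.42 (adjusted p = 0.869; 0.55 when P59 replicate 2 was left out). The cell cycle inhibitor gene Cdkn1a differed by -0.33 (adjusted p = 0.916; -0.28 without that array). The 3 E protein genes, whose products Id proteins bind, all had lower means. Of these Tcf3 differed by -0.42 (adjusted p = 0.905), and by -0.05 without P59 replicate 2.

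**Figure D5:**
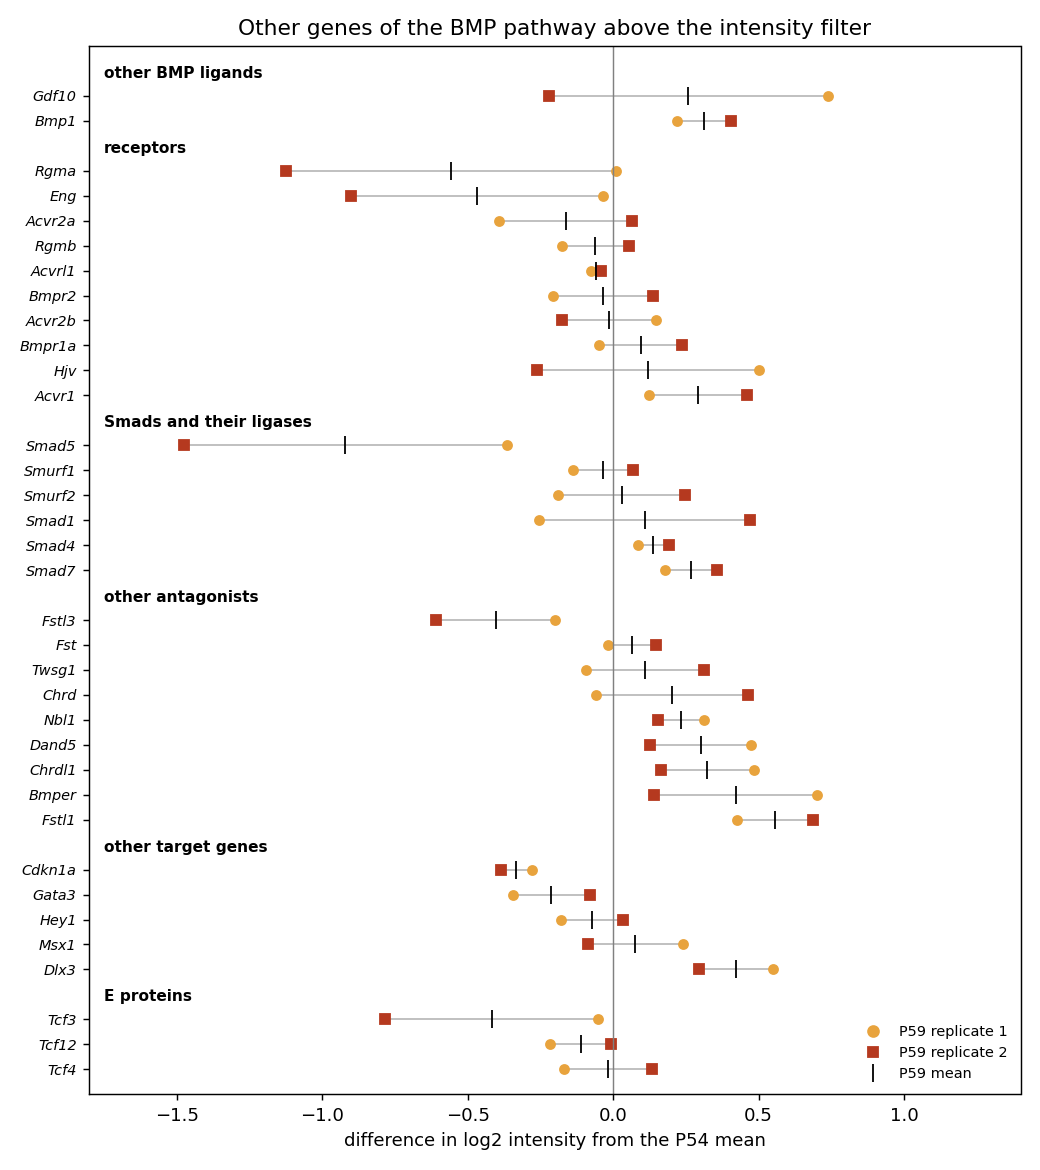
Difference in log2 intensity from the P54 mean (x axis) of the tested genes of the pathway lists (y axis), for each P59 array and for the P59 mean; Smad7, on 2 lists, is drawn once. Smad5, Rgma, Eng and Tcf3 lie far to the left in P59 replicate 2 and near the P54 mean or moderately below it in P59 replicate 1.

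Markers of the cell types of skin also differed between the arrays. The 6 tested adipocyte markers, of 8, averaged 10.37 and 10.30 in the P54 arrays and 9.97 and 9.83 in the P59 arrays. Their median difference was -0.32, and -0.40 without P59 replicate 2, and Adipoq differed by -0.44 (adjusted p = 0.861; -0.53 without that array). The median was -0.51 for the 6 basal epidermal markers (-0.37 without P59 replicate 2), -0.25 for the 4 tested suprabasal markers (-0.24), -0.19 for the 8 bulge and hair germ markers (-0.28) and -0.20 for the 5 endothelial markers (-0.28). It was 0.65 for the 5 macrophage markers (0.36 without P59 replicate 2), 0.21 for the 4 tested dermal papilla markers (0.35), 0.03 for the 5 dermal fibroblast markers (0.0041) and -0.0022 for the 5 skeletal muscle markers (0.22). The growing follicle markers stood furthest apart, with a median of 3.73 over the 6 tested, and 4.82 without P59 replicate 2. With all 4 arrays 5 of these 6 had higher means at P59 and 1, Hoxc13, did not. In limma's fit 0 of the 54 tested markers of these 10 lists were past the adjusted threshold, and 18, or 33.3%, were at an unadjusted p under 0.05, against 6.49% of all genes tested. Without P59 replicate 2, 12 of the 54, or 22.2%, were at such a p, against 6.34% of all tested. In that fit 3 were past the adjusted threshold, where 0.266% of all tested were: the inner root sheath genes Krt71 and Tchh and the hair keratin gene Krt31, named here after their values were seen. Of the 18 markers at an unadjusted p under 0.05 with all 4 arrays, 5 were growing follicle markers. The lists were chosen with earlier results of these data known, so these shares are a description and no test of the lists. The part of these cell types in the levels of the 10 genes was not tested.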

How the data were processed

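The authors deposited 1 table of linear intensity per probe set for the 4 arrays. Per the submitters' processing notes it was made with RMA in Affymetrix Expression Console; a version and a genome build are not given in the sources used here. RMA brings arrays to a common distribution, so a difference is relative to that distribution. Intensities (6.41 to 24000) were taken to log2 with no pseudocount. Of 45101 probe sets, 34958 had 1 symbol in the platform annotation of GEO, and the others were not used. The brightest set on average stood for a gene. The 10916 genes whose mean exceeded the 40th percentile (6.58) were fitted in limma 3.58.1 (R 4.3.3, lmFit and eBayes without trend) with Benjamini-Hochberg adjustment at 0.05. The number of arrays, 2 per age, limits the precision. The procedure was tested on simulated data. Members, lists and tests were chosen with earlier results of these data known. Beside the members, the text names up to 3 genes per pathway list with the smallest p, Nog, Chrd, Grem1, Fst, Bmpr1a and Bmpr2, up to 2 first genes per marker list, and the 3 genes nearest in pattern to the 2 members of widest range. Alternatives changed the filter, probe set, normalization, variance prior, replicate block and arrays included.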

Additional observations from a re-analysis of the deposited data

How the results depend on the processing

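Of 123 values of the 10 differences under the alternatives, 107 kept their direction and stayed short of the adjusted threshold, 14 changed sign, and Id1 passed the threshold in 2. Many of these could not change sign. A change of filter, variance prior or replicate block leaves the difference itself as it was. So does the mean of all probe sets for a gene with a single set. Leaving out 1 array at a time, the differences ran from -0.15 to 0.52 for Bmp2, from -0.070 to 0.23 for Bmp4, from -0.72 to 0.0092 for Bmp6, from -0.16 to 0.22 for Bmp7, from -1.74 to -0.42 for Id1, from -0.029 to 0.39 for Id2, from -0.024 to 0.11 for Id3, from -0.73 to -0.0009 for Id4, from -0.075 to 0.30 for Bambi and from -0.20 to -0.020 for Sostdc1. With the mean of all probe sets Bmp7 and Id2 turned to -0.35 and -0.084, and each of these means includes a set whose own mean lay below the filter. Single sets of Bmp7 gave -0.064 and -1.002, the latter from such a set. The cause was not tested. The genes past the adjusted threshold in limma numbered 0 without the intensity filter, with the 60th percentile filter, with the mean of all probe sets, with each set tested or with quantile normalization again, 47 with median centring, 12 with robust eBayes and between 29 and 401 with 1 array left out, against 2 in the report. Of the 10 genes between 0 and 1 were past it with 1 array left out. Those at an unadjusted p under 0.05 numbered 2 with the mean of all sets or with each set tested, and 1 or 2 with 1 array left out. Over all genes that count was 1122 without the filter, 458 with the 60th percentile filter, 1118 with each set tested, and between 272 and 2030 with 1 array left out, against 708. The count with each set tested is of probe sets. The number tested also changed with the filter, from 10916 genes in the report to 18194 without it, so these counts are not shares. Same-numbered samples were not treated as pairs. Deviations of same-numbered arrays correlated at -0.04 across 10916 genes. The P59 deviations include P59 replicate 2, the array of widest spread, so this value cannot settle whether samples were paired. With the replicate block in limma 155 of 10916 genes and 1 of the 10, Id1 (adjusted p = 0.0353), were past the threshold. In that fit the p-values of the 10 genes followed the size of their differences alone, as with 1 error shared by all. The gap of 1.32 between the P59 arrays of Id1 thus did not widen its error. The same held in the fits without a P54 array. Signal over background was not measured here. The 60th percentile filter left out Bmp6, Bmp7 and Bambi.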

Other observations

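The arrays in which the 10 genes were highest or lowest were spread over both ages. P59 replicate 2 held the highest level of 4 genes and the lowest of 1, P54 replicate 2 the highest of 2 and the lowest of 4, P59 replicate 1 the highest of 1 and the lowest of 4, and P54 replicate 1 the highest of 3 and the lowest of 1. Over all genes tested, 2.90% lay more than 1 below the mean of the other arrays in P59 replicate 2, against 0.330% in P59 replicate 1, 0.999% in P54 replicate 2 and 0.247% in P54 replicate 1.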
